A study of Mus musculus with 6 samples.

Results

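The genes described here are 4 enzymes of the pentose phosphate pathway and 6 antioxidant genes that the transcription factor NRF2 is known to drive. They were taken by name: *G6pdx* and *Pgd* (oxidative branch), *Tkt* and *Taldo1* (non-oxidative branch), and *Nqo1*, *Hmox1*, *Gclc*, *Gclm*, *Txnrd1* and *Srxn1*. Each name matched 1 row of the deposited table, so that 10 of its 54331 genes are described, and all 10 passed the filter on low values, which required 1 TPM or more on average over the wells (TPM is a transcript level per transcript length, scaled to 1000000 in each well). The comparison asks how the activation of AKT, a kinase of the insulin and growth factor pathway, alters gene expression while fibroblasts are reprogrammed to pluripotency.

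Mouse embryonic fibroblasts (MEFs) were prepared from male E13.5 embryos that carried an Oct4-EGFP transgene on a mixed C57BL/6, DBA/2 and ICR background, and cells of several embryos were mixed. In both groups the MEFs were transduced by retrovirus with Oct4, Sox2 and Klf4 and with AKT-MER, a myristoylated AKT fused to a modified estrogen receptor. The OSKA + 4OHT group (3 wells) then received 1 µM 4-hydroxytamoxifen (4OHT), the ligand that activates AKT-MER, from 3 dpi (days post-infection), and the OSKA − 4OHT group (3 wells) was mock treated with the vehicle. RNA was taken from all cells of a well at 10 dpi, without sorting. Since both groups carry AKT-MER and no well without it is in these data, an action of 4OHT itself and the activation of AKT cannot be told apart. The wells came from the same mixed cells, so p-values measure only the spread between wells, which may be technical.

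The pentose phosphate pathway splits glucose 6-phosphate away from glycolysis: its oxidative branch makes NADPH and ribulose 5-phosphate, and its non-oxidative branch exchanges sugar phosphates with glycolysis and supplies ribose for nucleotides. NADPH is the electron source from which glutathione and thioredoxin are kept reduced. NRF2, encoded by *Nfe2l2*, is held back by KEAP1, which targets it for degradation. When released it pairs with a small MAF protein on antioxidant response elements (AREs) near its target genes, where BACH1 competes with it.

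The 5 promoter windows below are shown because ARE letters can be read directly in 4 of them. The windows also cover *Nqo1*, which rose and whose window holds no such letters, beside genes that did not pass the test. They are RefSeq windows (build GRCm38.p6) of 300 bases, from 250 before to 50 after an annotated start, written 5′ to 3′ on the strand of the gene. Capitals mark the ARE core TGACNNNGC, searched on both strands. All 4 matches shown lie on the opposite strand, so that the capitals are the reverse complement of the core. The window of *Txnrd1* is the one of its 3 that holds a match.
*G6pdx*, chrX:74428831-74429130, minus strand: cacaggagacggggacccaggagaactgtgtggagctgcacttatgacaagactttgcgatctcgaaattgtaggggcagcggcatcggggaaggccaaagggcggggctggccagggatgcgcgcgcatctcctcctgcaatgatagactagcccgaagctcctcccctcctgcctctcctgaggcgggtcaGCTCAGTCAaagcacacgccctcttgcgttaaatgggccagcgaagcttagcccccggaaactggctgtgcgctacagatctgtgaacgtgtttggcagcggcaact
*Nqo1*, chr8:107403156-107403455, minus strand: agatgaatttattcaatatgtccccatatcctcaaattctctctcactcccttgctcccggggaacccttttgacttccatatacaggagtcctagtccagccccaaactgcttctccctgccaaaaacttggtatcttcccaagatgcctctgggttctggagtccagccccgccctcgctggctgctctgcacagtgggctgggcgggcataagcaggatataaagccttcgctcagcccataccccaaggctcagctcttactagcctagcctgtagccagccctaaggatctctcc
*Gclm*, chr3:122245307-122245606, plus strand: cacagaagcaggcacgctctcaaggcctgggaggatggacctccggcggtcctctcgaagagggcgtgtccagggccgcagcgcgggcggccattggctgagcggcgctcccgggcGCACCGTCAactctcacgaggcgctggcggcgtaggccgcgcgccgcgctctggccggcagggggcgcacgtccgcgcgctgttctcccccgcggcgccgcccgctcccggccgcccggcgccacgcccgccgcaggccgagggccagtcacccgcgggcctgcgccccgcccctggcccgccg
*Txnrd1*, chr10:82858956-82859255, plus strand: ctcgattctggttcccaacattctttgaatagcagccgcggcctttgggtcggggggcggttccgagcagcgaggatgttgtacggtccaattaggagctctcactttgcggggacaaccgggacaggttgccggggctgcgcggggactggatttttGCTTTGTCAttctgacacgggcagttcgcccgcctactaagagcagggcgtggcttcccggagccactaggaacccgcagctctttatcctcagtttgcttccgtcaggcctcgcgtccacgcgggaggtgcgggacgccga
*Srxn1*, chr2:152105274-152105573, plus strand: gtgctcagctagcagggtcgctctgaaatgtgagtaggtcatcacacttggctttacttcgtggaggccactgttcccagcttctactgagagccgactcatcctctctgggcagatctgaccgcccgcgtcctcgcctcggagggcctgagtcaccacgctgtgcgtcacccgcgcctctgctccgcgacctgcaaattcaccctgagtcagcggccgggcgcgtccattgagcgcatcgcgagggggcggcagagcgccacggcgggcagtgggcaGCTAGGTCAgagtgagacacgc

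Of the 10 genes, 8 had a window in the table used here. *Hmox1* and *Gclc* had none. The core was found in 5 of the 8 genes, against 14% of 27025 genes in that table. By windows it was found in 5 of 11 (45.5%), against 12.4% of 32851. *Txnrd1* had 3 windows and *Pgd* 2, which gives these genes more room for a match. Counted from the start as position 1, the first base of the match lay at -57 in *G6pdx* (TGACTGAGC as read on the opposite strand), at -134 in *Gclm* (TGACGGTGC), at -92 in *Txnrd1* (TGACAAAGC), at 29 in *Srxn1* (TGACCTAGC) and at 4 in the second window of *Pgd* (TGACATTGC, on the gene's own strand). The match in *Pgd* follows its annotated start, and the first window of *Pgd*, at the 5′ end of the gene, held no such letters. The match in *Pgd* therefore need not lie in a promoter. The windows of *Tkt*, *Taldo1* and *Nqo1* held no such letters. The core letters can overlap those of an AP-1 site, TGACTCA. A match is a description of these letters and not evidence of binding, and no match says nothing of sites outside the window.

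Of the 10 genes, *Hmox1* and *Nqo1* were higher in the OSKA + 4OHT group with an adjusted p under 0.05 (limma-trend with Benjamini-Hochberg adjustment over 15382 genes), each at more than 2 times the level of the OSKA − 4OHT group. The other 8 did not pass. Over all genes tested, 3.52% passed in the higher direction and 1.97% in the lower direction, in which 0 of the 10 passed. At an unadjusted p under 0.05 there were 5 of the 10, all of them higher, against 21.3% of all genes. The 3 wells of one group lay above all 3 wells of the other for 6 of the 10, each time with OSKA + 4OHT higher, against 18.1% of all genes in that direction. The reverse was seen for 0 of the 10, against 10.0% of all genes. The fitted log2 fold change was above 0 for 9 of the 10 and had a median of 0.44. Over all genes the median was 0.14, with 59.35% above 0. Fold changes were fitted on log2(TPM + 0.5), and the 0.5 makes the changes of low genes look smaller than they are. These are levels in bulk RNA, in which a change in the share of a cell type and a change in RNA per cell cannot be told apart.

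**Figure D1:**
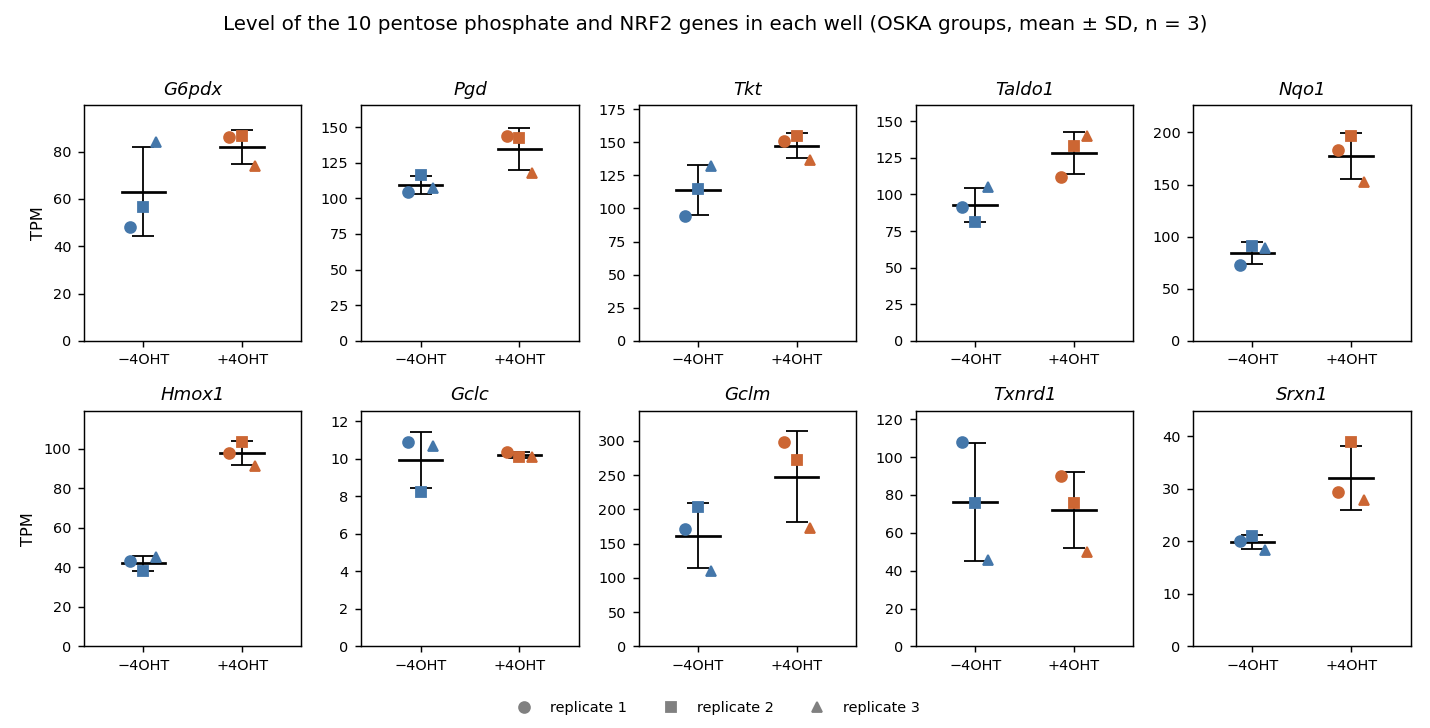
Level (TPM, linear axis from 0) of the 10 genes in each well, with the OSKA − 4OHT wells in blue and the OSKA + 4OHT wells in orange. Point shapes mark the replicate number, and bars give the mean ± SD of 3 wells. The groups are apart for *Pgd*, *Tkt*, *Taldo1*, *Nqo1*, *Hmox1* and *Srxn1*, and overlap for *G6pdx*, *Gclc*, *Gclm* and *Txnrd1*.

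The oxidative branch begins with *G6pdx*, which encodes glucose-6-phosphate dehydrogenase, the enzyme that commits glucose 6-phosphate to the pathway and makes its first NADPH. In the files it is ENSMUSG00000031400, at chrX:74409483-74429194 on the minus strand (this and the positions below are for whole genes in GENCODE M21 on GRCm38). Its level was 48.3, 56.7 and 84.1 TPM in OSKA − 4OHT replicates 1, 2 and 3. OSKA + 4OHT replicates 1, 2 and 3 had 86.0, 86.5 and 73.7 TPM. Replicate 3 without 4OHT was above replicate 3 with 4OHT, so the groups overlapped. The fitted log2 fold change was 0.41 (SE 0.23, 95% interval -0.13 to 0.96), with an adjusted p of 0.359 in limma-trend with Benjamini-Hochberg adjustment. With a well left out, the log2 fold change ran from 0.24 (without OSKA − 4OHT replicate 1) to 0.64 (without OSKA − 4OHT replicate 3). A stretch of 136 bases of *G6pdx* transcripts is 99.3% identical to the opposite strand of *Ikbkg*, so reads from it could be shared if strand was not used in the quantification.

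*Pgd* (ENSMUSG00000028961, chr4:149149991-149166771, minus strand) encodes 6-phosphogluconate dehydrogenase, which makes the second NADPH of the branch. Without 4OHT the wells had 104, 116 and 107 TPM. With 4OHT they had 144, 142 and 118 TPM, all above the highest well without it, replicate 3 by a narrow margin. Its log2 fold change was 0.30 (SE 0.13, 95% interval -0.027 to 0.62), and the adjusted p of 0.271 (limma-trend with Benjamini-Hochberg adjustment) did not pass. Within a well, the level of *Pgd* was between 1.27 and 2.16 times that of *G6pdx*, with means of 1.83 ± 0.486 (SD, n = 3) without 4OHT and 1.64 ± 0.0374 with it. The summed level of both oxidative enzymes ran from 153 to 191 TPM without 4OHT and from 192 to 229.6 TPM with it.

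Both enzymes of the non-oxidative branch had non-overlapping groups and adjusted p-values above 0.05. *Tkt* (ENSMUSG00000021957, chr14:30548359-30574720, plus strand) encodes transketolase, which moves carbon units between sugar phosphates. It stood at 94.1, 115 and 132 TPM without 4OHT and at 151, 155 and 137 TPM with it. Its lowest OSKA + 4OHT well lay just above its highest OSKA − 4OHT well. The log2 fold change of *Tkt* was 0.38 (SE 0.16, 95% interval 0.00023 to 0.77), with a p of 0.0499 before adjustment and of 0.234 after it in limma-trend with Benjamini-Hochberg adjustment.

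*Taldo1* (ENSMUSG00000025503, chr7:141392199-141402968, plus strand) encodes transaldolase, the partner of transketolase. Its values were 91.7, 81.4 and 105 TPM in the OSKA − 4OHT wells and 112, 133 and 139.8 TPM in the OSKA + 4OHT wells. Here replicate 1 was the lowest well with 4OHT, whereas replicate 3 was the lowest for *G6pdx*, *Pgd* and *Tkt*. A log2 fold change of 0.47 (SE 0.16, 95% interval 0.093 to 0.85) was the highest of the 4 enzymes, and its p was 0.0220 before adjustment and 0.152 after it (limma-trend with Benjamini-Hochberg adjustment). This rank rested on single wells. *G6pdx* was above *Taldo1* without OSKA − 4OHT replicate 3 (0.64 against 0.56) or OSKA + 4OHT replicate 3 (0.49 against 0.41). It was below *Taldo1* when any other well was left out. The ratio of *Tkt* to *Taldo1* was 1.23 ± 0.194 (SD, n = 3) without 4OHT and 1.16 ± 0.183 with it, so the spread between wells was wider than the distance between the means.

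As with the 4 enzymes above, none of the further pathway genes tested passed. Of 13 further genes of the pentose phosphate list (the other enzymes of both branches, relatives of transketolase and the steps from ribose 5-phosphate to phosphoribosyl pyrophosphate), 10 were tested and 0 passed in either direction with limma-trend. The only one with an unadjusted p under 0.05 was the ribokinase gene *Rbks* (named after its values were seen). It was at 3.71 ± 1.28 TPM without and 0.942 ± 1.02 TPM with 4OHT (SD, n = 3). *Rbks* entered the test only through its wells without 4OHT, so this count is not set against the share of all genes. The median log2 fold change of the 10 was -0.15 (-0.14 over the 9 without *Rbks*), against 0.14 over all genes, with 4 of the 10 above 0. *Pgls*, whose lactonase stands between *G6pdx* and *Pgd* in the pathway, had 53.7, 62.8 and 56.4 TPM without 4OHT and 46.6, 63.7 and 26.8 TPM with it (log2 fold change -0.41, SE 0.32, adjusted p = 0.519 in limma-trend with Benjamini-Hochberg adjustment). Its well with the lowest level was OSKA + 4OHT replicate 3, and the groups overlapped. Without that well the log2 fold change of *Pgls* was -0.076, in a range of -0.69 to -0.076 with a well left out. *Rpia*, the isomerase that yields ribose 5-phosphate, stood at 6.24 ± 1.28 and 6.50 ± 1.43 TPM (mean ± SD, n = 3) in the OSKA − 4OHT and OSKA + 4OHT groups. *G6pd2*, a copy of *G6pdx*, was listed at 0 in all 6 wells.

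*Hmox1* had the largest fold change of the 10 genes. It encodes heme oxygenase 1, which opens heme to biliverdin, carbon monoxide and iron, and it is at chr8:75093621-75100589 on the plus strand (ENSMUSG00000005413). Without 4OHT it was at 43.0, 37.9 and 45.1 TPM. With 4OHT it was at 98.0, 103 and 91.4 TPM, and the lowest of these was more than 2 times the highest without 4OHT. The means were 42.0 ± 3.71 and 97.6 ± 6.04 TPM (SD, n = 3), a ratio of 2.32. On the log2 scale the change was 1.21 (SE 0.14, 95% interval 0.88 to 1.54), with an adjusted p of 0.00879 in limma-trend with Benjamini-Hochberg adjustment. The adjusted p ran from 0.0264 to 0.0481 when each well was left out in turn. The ratio of *Hmox1* to *Hmox2*, the constitutive heme oxygenase, was 0.760, 1.07 and 1.53 without 4OHT and 2.17, 2.14 and 2.40 with it. Of the 1730 bases of *Hmox2*, 767 match the opposite strand of *Cdip1*, so this ratio is uncertain if strand was not used.

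*Nqo1* encodes NAD(P)H quinone dehydrogenase 1, a quinone reductase and a common reporter of NRF2 activity. It is ENSMUSG00000003849, at chr8:107388225-107403206 on the minus strand. Its level rose from 72.5, 91.5 and 89.3 TPM in the OSKA − 4OHT wells to 183, 196 and 153 TPM in the OSKA + 4OHT wells. The lowest well with 4OHT was far above the highest without it. The means were 84.4 ± 10.4 and 177 ± 22.4 TPM (SD, n = 3), a ratio of 2.10, and the log2 fold change was 1.07 (SE 0.16, 95% interval 0.68 to 1.45) with an adjusted p of 0.0184 in limma-trend with Benjamini-Hochberg adjustment. This call was lost in most fits with a well left out. The adjusted p was 0.0345 without OSKA + 4OHT replicate 3 and above 0.05 when any other well was left out: 0.0536, 0.0580 and 0.0589 without OSKA − 4OHT replicates 1, 2 and 3, and 0.0833 and 0.0745 without OSKA + 4OHT replicates 1 and 2. The log2 fold change stayed between 0.96 and 1.17 in these fits.

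**Figure D2:**
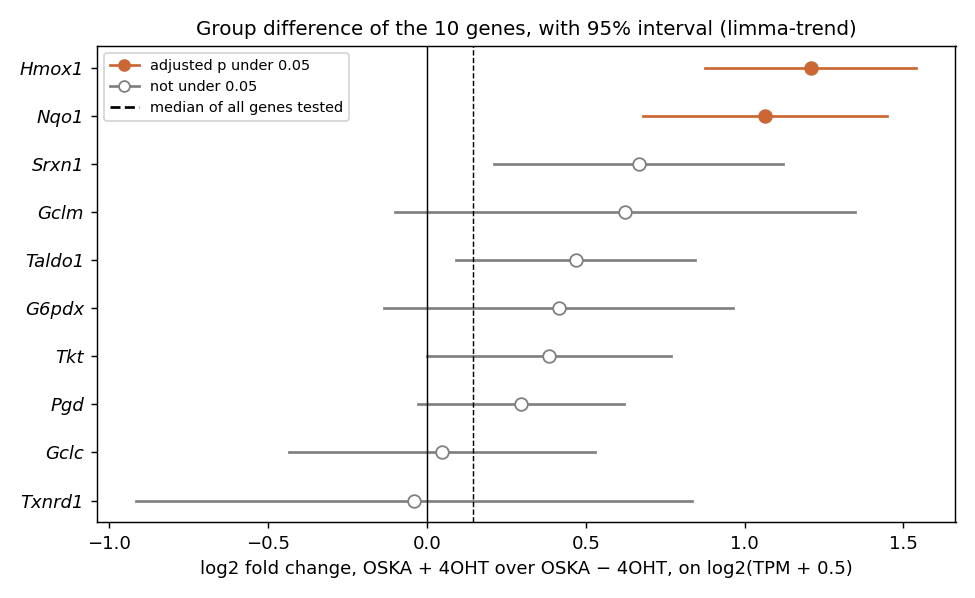
Log2 fold change of each of the 10 genes (OSKA + 4OHT over OSKA − 4OHT, on log2(TPM + 0.5), points) with its 95% interval from limma-trend (lines). The dashed line is the median of all genes tested, 0.14, and filled points have an adjusted p under 0.05, which holds for *Hmox1* (1.21) and *Nqo1* (1.07).

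*Srxn1* (ENSMUSG00000032802, chr2:152105516-152111376, plus strand) encodes sulfiredoxin, which repairs over-oxidised peroxiredoxins. The OSKA − 4OHT wells had 20.0, 21.0 and 18.4 TPM and the OSKA + 4OHT wells 29.3, 38.9 and 27.9 TPM. The groups did not overlap, and replicate 2 with 4OHT stood above the other two. The fitted log2 fold change was 0.67 (SE 0.19, 95% interval 0.21 to 1.12), with a p of 0.0110 that became 0.105 after adjustment in limma-trend with Benjamini-Hochberg adjustment, which did not pass.

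The 2 subunits of glutamate-cysteine ligase, which makes the first bond of glutathione, differed from each other in level and spread. *Gclm* (ENSMUSG00000028124, chr3:122245557-122270732, plus strand), the modifier subunit, had 172, 203 and 109.5 TPM without 4OHT and 298, 272 and 172 TPM with it. Replicate 3 was the lowest well in each group, and the groups overlapped. Its log2 fold change was 0.62 (SE 0.30, 95% interval -0.10 to 1.35; adjusted p = 0.299, limma-trend with Benjamini-Hochberg adjustment). With a well left out, the change of *Gclm* ran from 0.37 (without OSKA − 4OHT replicate 3) to 0.86 (without OSKA + 4OHT replicate 3). *Gclc* (ENSMUSG00000032350, chr9:77754535-77794485, plus strand), the catalytic subunit, had 10.9, 8.20 and 10.7 TPM without 4OHT and 10.4, 10.1 and 10.1 TPM with it, all within the range of the OSKA − 4OHT wells. The log2 fold change of *Gclc* was 0.047 (SE 0.20, 95% interval -0.44 to 0.53; adjusted p = 0.920 by the same test). Its sign was the opposite under both other scalings of the wells, at -0.076 and -0.12. TPM is already per transcript length, and on that scale *Gclm* was between 10.3 and 28.8 times as abundant as *Gclc* in the 6 wells. A stretch of 103 of the 5589 bases of the longest *Gclm* transcript is 96.1% identical to the gene model AC174471.1.

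*Txnrd1* (ENSMUSG00000020250, chr10:82833951-82897712, plus strand) encodes the cytosolic thioredoxin reductase, which passes electrons of NADPH to thioredoxin. It was the one gene of the 10 with a fitted log2 fold change below 0. The wells without 4OHT had 108, 75.6 and 45.7 TPM and those with 4OHT had 90.0, 75.9 and 50.1 TPM. Wells of the same group differed by more than the group means, 76.4 ± 31.2 and 72.0 ± 20.2 TPM (SD, n = 3), and replicate 3 was again the lowest of each group. A log2 fold change of -0.042 was fitted (SE 0.36, 95% interval -0.92 to 0.83; adjusted p = 0.966, limma-trend with Benjamini-Hochberg adjustment). As a fold, this interval runs from 0.530 to 1.78. The sign turned when OSKA − 4OHT replicate 1 (0.25) or OSKA + 4OHT replicate 3 (0.20) was left out. The level of *Txnrd1* was 0.163 to 0.383 times that of its substrate gene *Txn1*.

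The order of the levels was led by *Gclm* in both groups (means of 161 and 248 TPM), whereas *Srxn1* and *Gclc* ranked 9 and 10 in every well. In the OSKA − 4OHT group *Gclm* was followed by *Tkt* (114), *Pgd* (109), *Taldo1* (92.8), *Nqo1* (84.4), *Txnrd1* (76.4), *G6pdx* (63.0) and *Hmox1* (42.0), in TPM. From *Gclm* to *G6pdx* the wells of each neighbouring pair overlapped, so their order is not set beyond the spread, whereas all wells of *Hmox1* lay below those of *G6pdx*. With 4OHT, *Nqo1* was in place 2 (177), with wells that overlapped those of *Gclm* and of *Tkt* (147). *Hmox1* (97.6) was in place 6, with all wells below those of *Taldo1* (128) and above those of *G6pdx* (82.1). The summed level of all 10 genes was 747 to 806 TPM in the OSKA − 4OHT wells and 973 to 1214 TPM in the OSKA + 4OHT wells.

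NRF2 itself and the genes that control it showed no common direction. Of 10 such genes, 0 passed as higher and 1 as lower, with a median log2 fold change of 0.013. For this and the lists that follow, the shares over all genes tested were 3.52% higher and 1.97% lower, with a median of 0.14. *Nfe2l2* had 81.3, 76.6 and 87.2 TPM without 4OHT and 115, 109 and 114 TPM with it, so that its groups did not overlap. Its log2 fold change of 0.47 (SE 0.12) had an adjusted p of 0.0797 in limma-trend with Benjamini-Hochberg adjustment and did not pass. *Keap1* had 12.8, 12.9 and 12.4 TPM against 18.2, 19.3 and 12.8 TPM (0.36, SE 0.21, adjusted p = 0.389 by limma-trend with Benjamini-Hochberg adjustment). *Bach1* had 15.2, 19.7 and 18.6 TPM against 15.6, 13.3 and 10.9 TPM (-0.42, SE 0.21, adjusted p = 0.324 by the same test). In neither gene were the groups apart. A stretch of 209 bases of *Keap1* matches the opposite strand of *Gm16754*.

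The gene of this list that passed was *Mafk*, one of the small MAF partners. *Mafk* fell from 34.6, 34.3 and 25.2 TPM without 4OHT to 10.9, 10.3 and 10.0 TPM with it. This was a log2 fold change of -1.53 (SE 0.19) with an adjusted p of 0.0116 in limma-trend with Benjamini-Hochberg adjustment. The adjusted p was above 0.05 without OSKA − 4OHT replicate 2 (0.0542), OSKA + 4OHT replicate 1 (0.0591) or OSKA + 4OHT replicate 2 (0.0585). Its relative *Maff*, named after its values were seen, had 21.7, 18.3 and 14.5 TPM against 8.35, 9.26 and 6.55 TPM, with an adjusted p of 0.0501 (limma-trend with Benjamini-Hochberg adjustment). Both genes had groups that did not overlap, whereas *Mafg*, the third small MAF (also named after its values were seen), had means of 25.5 ± 8.56 and 27.1 ± 4.63 TPM (SD, n = 3).

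**Figure D3:**
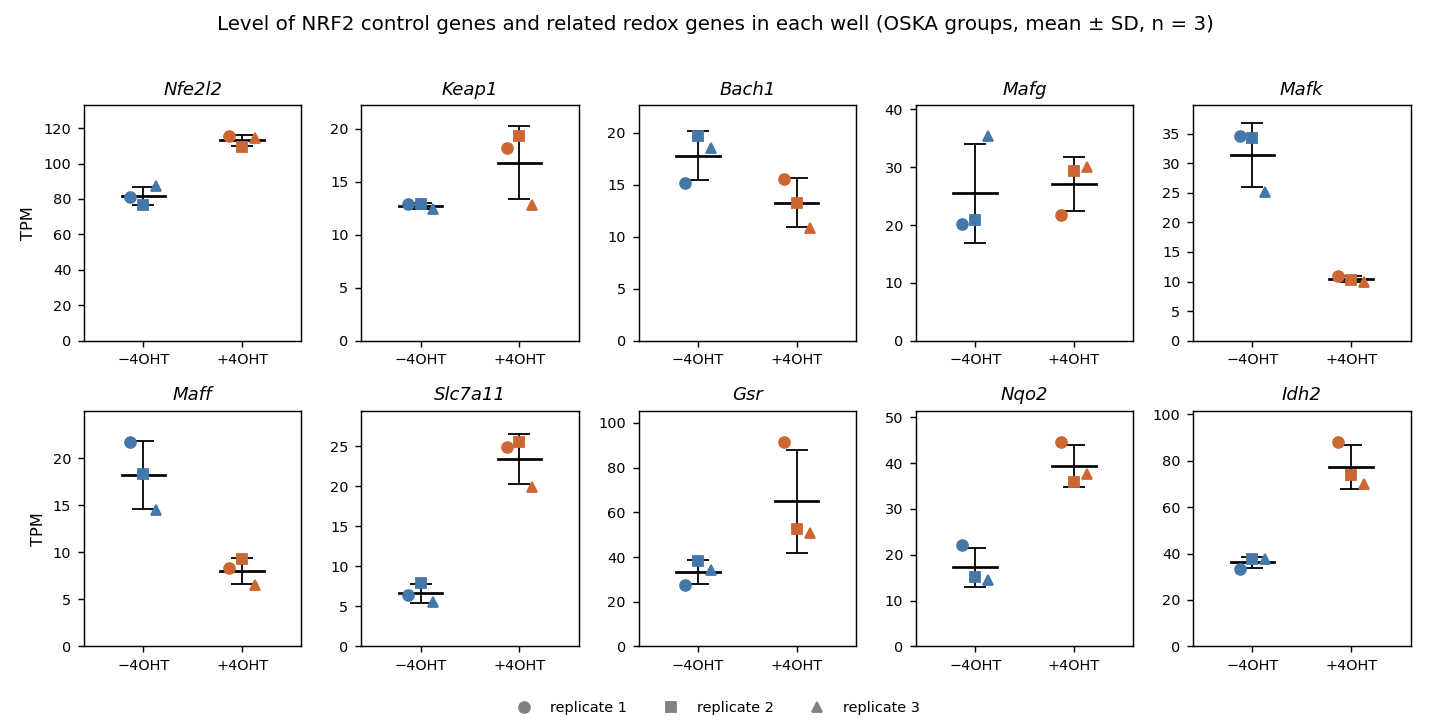
Level (TPM, linear axis from 0) in each well of genes that control NRF2 and of related redox genes, with the OSKA − 4OHT wells in blue, the OSKA + 4OHT wells in orange, point shapes for the replicate number and bars for the mean ± SD of 3 wells. *Mafk*, *Slc7a11*, *Nqo2* and *Idh2* have an adjusted p under 0.05, and the groups of *Keap1*, *Bach1* and *Mafg* overlap.

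Glutathione genes were tested for 28 of 29 listed, of which *Gsta1*, *Gsta2* and *Mgst2* entered the test only through their wells with 4OHT. Of the other 25, a choice made after the data were seen, 3 passed as higher and 0 as lower, with a median log2 fold change of 0.45 (0.47 over all 28). *Slc7a11*, the cystine carrier that feeds glutathione synthesis, rose from 6.48, 7.90 and 5.56 TPM to 24.9, 25.5 and 19.9 TPM, a ratio of means of 3.52 (log2 fold change 1.75, SE 0.22, adjusted p = 0.0111 in limma-trend with Benjamini-Hochberg adjustment). Its lowest well with 4OHT was more than 2 times its highest without. Its adjusted p was 0.0671 without OSKA + 4OHT replicate 1 and 0.0647 without OSKA + 4OHT replicate 2, and a stretch of 373 of its 9223 bases is 96.2% identical to the opposite strand of *Tuba1b*. *Gsr*, the glutathione reductase that uses NADPH, had 27.5, 38.4 and 34.2 TPM against 91.6, 52.7 and 50.7 TPM, with groups apart and an adjusted p of 0.121 (limma-trend with Benjamini-Hochberg adjustment).

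Among the glutathione transferases and peroxidases, *Gsta3* rose from 15.7 ± 5.17 to 39.5 ± 3.15 TPM (mean ± SD, n = 3; adjusted p = 0.0338, limma-trend with Benjamini-Hochberg adjustment). *Gpx2*, a glutathione peroxidase known from epithelia, rose from 2.83 ± 1.92 to 19.7 ± 6.84 TPM (n = 3; adjusted p = 0.0414, limma-trend with Benjamini-Hochberg adjustment). *Gpx2* did not pass when any of the 6 wells was left out, with an adjusted p of 0.0625 to 0.178 (357 of its 3165 bases are shared with *Gpx2-ps1* at 98.0% identity), and *Gsta3* passed in 1 of these 6 fits (0.0288 to 0.121). *Gsta2* and *Mgst2* were listed at 0 in all OSKA − 4OHT wells and at 8.17, 11.5 and 7.05 TPM, and 14.6, 6.16 and 10.3 TPM, in the OSKA + 4OHT wells. Both genes passed the filter on low values only through the OSKA + 4OHT wells, where a difference was bound to be found, so these levels are a description, with no test and no fold. The value of *Gsta2* is uncertain, since its transcript is 97.2% identical to that of *Gsta1* over 870 bases.

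Genes of thioredoxin, peroxiredoxin and superoxide dismutase were tested for 18 of 18, with 1 higher, 2 lower and a median log2 fold change of -0.0013. *Sesn3*, a stress-responsive sestrin and a known target of FOXO factors, rose from 17.4 ± 0.365 to 36.5 ± 3.80 TPM (mean ± SD, n = 3; adjusted p = 0.0191, limma-trend with Benjamini-Hochberg adjustment). The peroxiredoxins *Prdx4*, of the endoplasmic reticulum, and *Prdx5*, of mitochondria and peroxisomes, fell. Their means went from 145 ± 18.0 to 81.8 ± 5.48 TPM and from 275 ± 9.54 to 169.7 ± 19.7 TPM (SD, n = 3; adjusted p = 0.0306 and 0.0320, limma-trend with Benjamini-Hochberg adjustment). Each of these 3 genes passed in 1 of the 6 fits with a well left out, with adjusted p-values of 0.0326 to 0.0722 for *Sesn3*, 0.0399 to 0.0973 for *Prdx4* and 0.0438 to 0.0923 for *Prdx5*. *Txn1* (thioredoxin) had means of 297 ± 26.9 and 339.6 ± 48.3 TPM and *Txnip*, its inhibitor, 34.5 ± 5.78 and 41.0 ± 1.04 TPM (SD, n = 3), and neither passed. *Prdx5* shares 232 bases with the opposite strand of *Trmt112*, and *Txnip* shares 443 with that of *Gm15441*.

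Other genes known as NRF2 targets were tested for 20 of 20, with 2 higher, 0 lower and a median log2 fold change of 0.19. *Nqo2*, the relative of *Nqo1* that uses another electron donor, rose from 17.2 ± 4.18 to 39.4 ± 4.66 TPM (SD, n = 3; log2 fold change 1.19, SE 0.22, adjusted p = 0.0335 in limma-trend with Benjamini-Hochberg adjustment). It passed in 1 of the 6 fits with a well left out (0.0387 to 0.120), and 764 of its bases match the opposite strand of *Serpinb6a*. The ratio of *Nqo1* to *Nqo2* stayed between 3.29 and 6.18. *Blvrb*, a biliverdin reductase that also acts as a flavin reductase, rose from 13.6 ± 0.286 to 25.7 ± 4.03 TPM (mean ± SD, n = 3; adjusted p = 0.0453, limma-trend with Benjamini-Hochberg adjustment).

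Heme and iron genes, which include *Blvrb* again, were tested for 18 of 18, with 2 higher, 0 lower and a median log2 fold change of 0.29. *Blvrb* passed in 5 of 16 alternatives. Its adjusted p (limma-trend with Benjamini-Hochberg adjustment) was 0.0559 and 0.0669 with trimmed mean and quantile scaling, 0.0659 without a filter on low values, 0.0630 without a variance trend, and 0.0851 to 0.108 with a well left out. *Blvra*, named after its values were seen, encodes the reductase of the biliverdin that heme oxygenase forms, and had 12.7, 20.3 and 16.7 TPM against 38.2, 23.0 and 14.2 TPM, with groups that overlapped (adjusted p = 0.520 by the same test).

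Among 12 further sources of NADPH, 1 passed as higher and 0 as lower, with a median log2 fold change of 0.14, equal to that of all genes. *Idh2*, the mitochondrial NADP-dependent isocitrate dehydrogenase, rose from 33.2, 37.5 and 37.7 TPM to 88.1, 73.8 and 69.7 TPM, a ratio of means of 2.14 (log2 fold change 1.08, SE 0.15, adjusted p = 0.0160 in limma-trend with Benjamini-Hochberg adjustment). It passed in 2 of the 6 fits with a well left out (0.0345 to 0.0598). Its cytosolic counterpart *Idh1* had 158 ± 4.11 and 156 ± 6.26 TPM (mean ± SD, n = 3), with a log2 fold change of -0.016 and a 95% interval of -0.27 to 0.24. *Me1*, the cytosolic malic enzyme and a known NRF2 target, had 130.5 ± 26.8 and 141 ± 22.3 TPM. Its level is uncertain, since 1638 of the 3292 bases of its longest transcript are 98.5% identical to *Gm7049*. The signs of *Idh1* and *Me1* turned when single wells were left out, and that of *Me1* also under another scaling.

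**Figure D4:**
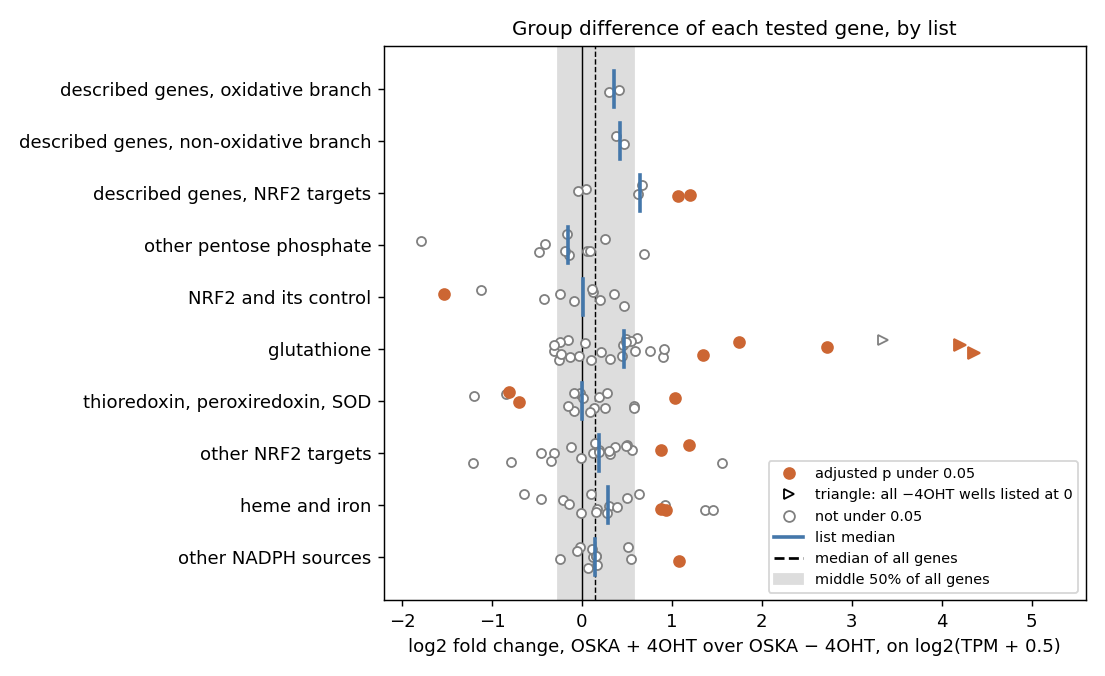
Log2 fold change (OSKA + 4OHT over OSKA − 4OHT, on log2(TPM + 0.5)) of each tested gene in the 10 genes described (top 3 rows) and in 7 lists of related genes. Filled symbols have an adjusted p under 0.05, triangles mark *Gsta1*, *Gsta2* and *Mgst2*, listed at 0 without 4OHT, whose plotted size depends on the 0.5 added and whose test is not used, blue bars are list medians, the dashed line is the median of all genes (0.14) and the grey band holds their middle 50%. The medians of the glutathione list (0.47, or 0.45 without the triangles) and of the other pentose phosphate genes (-0.15) lie on either side of that of all genes.

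Over the 7 related lists together, 110 genes were tested, of which 5 entered the test through the wells of 1 group only. Of the other 105, 8 passed as higher and 3 as lower, beside 3.52% and 1.97% of all genes. Over all 110, the groups did not overlap for 24 as higher and 13 as lower. These counts include *Gsta2* and *Mgst2* as higher and *Rbks* as lower, which entered the test through 1 group only. They are therefore not set against the shares of all genes. The median log2 fold change of the other 105 was 0.13 (0.15 over all 110), beside 0.14 over all genes.

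The profiles most like that of *Hmox1* over the 6 wells were those of *Parp12*, *Ero1lb* and *Scd2*. The root mean square difference of centred log2(TPM + 0.5) values was 0.0617, 0.0807 and 0.0823, among the 8798 genes at 10 TPM or more on average. The nearest to *Txnrd1* were *Ice1* (0.0875), *Snrnp48* (0.113) and *Ifngr2* (0.136). Like *Txnrd1*, these 3 had their lowest well in replicate 3 of each group, which their choice by likeness over the same wells made probable.

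Library measures and cell type markers were read beside these values. The 6 wells had between 15814 and 18230 genes above 0, and mitochondrial genes took 13.9% to 20.8% of the TPM. The highest share was that of OSKA + 4OHT replicate 3, against 14.5% and 13.9% in replicates 1 and 2 of its group, and this well was the lowest of the group for 9 of the 10 genes. With mitochondrial genes left out and the wells rescaled, an alternative chosen after the data were seen, the log2 fold change was 1.20 for *Hmox1* and 1.06 for *Nqo1*. The fibroblast markers summed to between 8072 and 9679.6 TPM without 4OHT and between 5757 and 7209.9 TPM with it, with 2 of 11 passing as higher and 3 as lower. Pluripotency markers summed to between 14.5 and 17.9 TPM without and between 65.5 and 72.2 TPM with 4OHT (of 8 tested, 5 entered the test only through their wells with 4OHT, 1 of the other 3 passed as higher, and *Dppa3* was at 0 in all wells). Epithelial markers summed to between 36.4 and 92.0 TPM and between 163 and 181 TPM (3 of 8 passed as higher). Macrophage markers, which matter for *Hmox1* because macrophages express it strongly, summed to between 153 and 176 TPM and between 92.5 and 112 TPM. *Lyz2* (95.2 ± 5.63 and 51.8 ± 7.77 TPM, SD, n = 3) was the largest part of these sums and passed as lower. *Cd68* (14.9 ± 2.92 and 19.0 ± 3.46 TPM) did not pass. Of the 10 macrophage markers, 3 had a log2 fold change above 0 and 7 below, and the groups overlapped for 8. Endothelial markers summed to between 26.5 and 32.0 TPM and between 30.9 and 40.1 TPM. Of these 6, only 3 were high enough to be tested, and 0 passed in either direction. Muscle markers summed to between 13.9 and 25.4 TPM and between 5.47 and 17.8 TPM, with *Myod1* and *Myog* at 0 in all wells. The part of these cell types in the levels of the 10 genes was not tested.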

How the data were processed

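RNA from 6 wells was sequenced by the authors as 50-base single-end reads of stranded polyA libraries, trimmed with Trim Galore and quantified with Salmon. Versions, annotation release and the use of strand in quantification are not given in the sources used here. What the authors deposited is TPM for each gene, with a sum of 1000000 in each well, so that the depth is unknown and no interval for counting error is given. The authors' columns of their own comparison (log2 fold change, log2 average level, F statistic and unadjusted p-value, which their methods made with edgeR) were not used. The files hold no counts, so no count test was run.

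Symbols and positions came from GENCODE M21 on GRCm38 (54097 of 54331 identifiers matched), and promoter windows from RefSeq on GRCm38.p6. Groups were compared with limma-trend (limma 3.58.1, R 4.3.3) on log2(TPM + 0.5), for the 15382 genes that averaged 1 TPM or more, without a block, with Benjamini-Hochberg adjustment. A gene passed at an adjusted p under 0.05, and only then is it said to have risen or fallen. An exact permutation test of 3 wells against 3 cannot give a p below 0.1 and was not used. The script was tested on simulated data with 200 genes changed. It recovered 0% of them at a log2 fold change of 1 and 42% at 2, with 0 and 7 false calls. In the data themselves 845 genes passed, and the Benjamini-Hochberg adjustment depends on how many genes change. The recovered shares therefore do not carry over directly to these data.

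The 10 genes and the lists were chosen with earlier results of these data known. Beside the 10, the genes named are 12 set by name, up to 5 passing genes of each list with the largest change, and the 3 profiles nearest to those of *Hmox1* and *Txnrd1*, which had the highest and the lowest log2 fold change of the 10. Outside this rule, *Hmox2*, *Gsta1*, *Rbks*, *Maff*, *Mafg*, *Blvra*, *Urod* and the markers *Lyz2*, *Cd68*, *Dppa3*, *Myod1* and *Myog* were named after their values were seen. One gene that this rule names is not reported here. *Nnt* was left out of its list because 2 identifiers carry the symbol. Near-identical transcripts (at least 95% over 100 bases) were searched with BLAST. Alternatives were other pseudocounts (0.1, 1 and 2), no filter or one of 5 TPM, trimmed mean and quantile scaling, no variance trend, the replicate number as a block, and leaving out each well. Leaving out mitochondrial genes was added after the data were seen.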

Additional observations from a re-analysis of the deposited data

How the results depend on the processing

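Of the 10 genes, *Hmox1* passed in 15 of 16 alternatives and *Nqo1* in 10 of 16, and both kept their direction in all 16. The number that passed as higher, 2, was 0 with the replicate block and between 1 and 2 when a well was left out. The number that passed as lower was 0 in every alternative. Over all genes, the 542 that passed as higher became 31 with the replicate block and between 137 and 357 with a well left out. The 303 that passed as lower became 477 with trimmed mean scaling, 16 with the replicate block and between 68 and 148 with a well left out. Fewer wells were fitted in the last of these, and the cause of the other shifts was not tested. Some calls of related genes were lost without a variance trend (adjusted p in limma with Benjamini-Hochberg adjustment). These were *Nqo2* (0.0558), *Gsta3* (0.0561), *Blvrb* (0.0630), *Gpx2* (0.0635), *Prdx4* (0.0735) and *Prdx5* (0.0917). *Slc7a11*, *Mafk*, *Sesn3* and *Idh2* still passed without that trend.

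The share of calls that were higher was 64.1%, and 48.9% with trimmed mean and 49.7% with quantile scaling, under which the median log2 fold change of all genes was 0.026 and -0.0047 in place of 0.14. Under these scalings *Hmox1* (1.08 and 1.10) and *Nqo1* (0.94 and 0.998) were still above the other 8 genes. Signs turned only for genes that did not pass: *Gclc* (-0.076 with trimmed mean scaling, -0.12 with quantile scaling and between -0.077, without OSKA − 4OHT replicate 2, and 0.12 with a well left out), *Txnrd1* (between -0.37 and 0.25 with a well left out: 0.25 and 0.20 without OSKA − 4OHT replicate 1 and OSKA + 4OHT replicate 3), *Me1* (-0.0060 with trimmed mean scaling, and -0.035 and -0.0030 without OSKA − 4OHT replicate 1 and OSKA + 4OHT replicate 2, in a range of -0.035 to 0.27), *Idh1* (-0.048 to 0.0068 with a well left out, the latter without OSKA + 4OHT replicate 1) and *Rpia* (-0.067 and -0.12 under the scalings, and -0.096 and -0.10 without the same wells as *Me1*, in a range of -0.10 to 0.18).

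The replicate numbers are shared between the groups in the labels, but the same-numbered wells deviated together only weakly (r across genes of 0.024, 0.034 and 0.084), so the numbers were not taken to pair the wells. With the replicate block the adjusted p (limma-trend with Benjamini-Hochberg adjustment) was 0.0798 for *Hmox1* and 0.0927 for *Nqo1*. The block also put it above 0.05 for *Slc7a11* (0.0640), *Mafk* (0.0730), *Nqo2* (0.0882), *Sesn3* (0.101) and *Idh2* (0.101). The same held for *Gsta3* (0.116), *Prdx5* (0.121), *Prdx4* (0.129), *Blvrb* (0.1365) and *Gpx2* (0.139). Each of 5 of the 6 wells correlated best with the well of its own number, a hint from the data and not from the design. The files keep no depth, so the counting error of low values is unknown, and a gene that did not pass with 3 wells per group is not shown to be unchanged.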

Other observations

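*Urod*, an enzyme of heme synthesis in the heme and iron list, was named after its values were seen. It stood at 24.6, 26.5 and 218 TPM in replicates 1, 2 and 3 without 4OHT, and 24.6, 26.5 and 140.4 TPM were listed in the same order with 4OHT, so that replicate 3 was far above the others in both groups.

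The symbol *Nnt*, the nicotinamide nucleotide transhydrogenase that makes mitochondrial NADPH, was carried by 2 identifiers. The first (ENSMUSG00000025453) had 30.9, 16.7 and 6.27 TPM without 4OHT and 0.540, 25.6 and 19.2 TPM with it. The second (ENSMUSG00000116207) was listed at 0, 8.23 and 16.1 TPM without 4OHT and at 24.2, 0 and 6.15 TPM with it. Their sum was 30.9, 24.97 and 22.3 TPM without 4OHT and 24.8, 25.6 and 25.4 TPM with it, so that the sum varied less from well to well than either identifier. No test was run on these values.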
